A study of Drosophila melanogaster with 60 samples.

Results

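The Pho regions at acetylated chromatin are stretches of the Drosophila melanogaster genome that carried a Pho peak in all 3 control Pho lists and an H3K27ac peak in at least 2 of the 3 control H3K27ac lists, with an H3K27me3 peak in fewer than 2 of the 3 control H3K27me3 lists. The 3 Pho lists were intersected base by base, and an overlap of 1 bp with a histone peak counted. Of 8908 intersected regions, 1418 (15.9%) met the rule, and they covered 199875 bases. They are called acetylated Pho regions here. The other regions are the 5747 (64.5%) with neither mark in 2 control lists, called unmarked, the 1178 (13.2%) with H3K27me3 alone, and the 565 (6.34%) with both marks. Because the control lists chose the regions, control values below are a description only.

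The study profiled the Hox protein Ubx, H3K27ac, H3K27me3 and Pho by ChIP-seq in nuclei isolated from mesoderm or neurons of embryos with INTACT, a method that pulls down nuclei tagged in 1 tissue. Each of the 35 ChIP libraries used here gave its own peak list. The degradation group was twi-INTACT, Mef2>Nslmb, GFP-Ubx. In it the Mef2 driver, active in muscle and its precursors, expresses Nslmb, which sends GFP-tagged proteins to the proteasome, so the GFP-tagged Ubx is the target. The control group was twi-INTACT; UAS-Nslmb, GFP-Ubx, which carries the same tagged Ubx and the Nslmb transgene but no driver. Both came from mesoderm nuclei at stages 14 to 17, with 3 lists each for Pho, H3K27ac and H3K27me3. Ubx was profiled in twi-INTACT mesoderm at stages 10 to 13 (early, 3 lists) and 14 to 17 (late, 2 lists), and in elav>INTACT neurons early and late (2 lists each). Wild-type twi-INTACT mesoderm gave 2 early and 2 late lists for each of H3K27ac and H3K27me3. The nuclei of a library were pooled, so a peak present in few nuclei and a weak peak present in all of them cannot be told apart.

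Pho is a zinc finger protein that binds DNA directly through a core of GCCAT and brings Polycomb group complexes to their target genes. Those complexes place H3K27me3, the mark of Polycomb-silenced genes such as the Hox genes outside their domains. H3K27ac sits on the same lysine, excludes the methyl mark there, and is found at active promoters and enhancers. Pho has been mapped both at Polycomb response elements and at active promoters.

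The following sequences show the kinds of acetylated Pho region that the results turn on. They are read 5′ to 3′ from the plus strand of the Release 6 assembly (dm6), and capitals mark the Pho core GCCAT or its reverse complement ATGGC. RFeSP (chr2L:1613916-1614030, the Rieske iron-sulfur protein of the respiratory chain) and ATPsyngamma (the central 300 bases of its region, chr3R:29748202-29748501, a subunit of ATP synthase) are regions just downstream of a promoter with Pho and H3K27ac in every control and every degradation list. RpS26 (chr2L:18442839-18443047, a protein of the small ribosomal subunit) is a region inside coding sequence of a ribosomal protein gene. Naa15-16 (chrX:19480744-19480816, a subunit of an N-terminal acetyltransferase) had the highest Pho rank among regions with no Pho peak in a degradation list. The region in a coding exon of sls (chr3L:2045712-2046005, the titin-like protein of the sarcomere) lies far from a start in a muscle gene. ATbp names 150 bases of an intergenic repeat on the X (chrX:23318269-23318418), for which ATbp has the nearest start.
RFeSP: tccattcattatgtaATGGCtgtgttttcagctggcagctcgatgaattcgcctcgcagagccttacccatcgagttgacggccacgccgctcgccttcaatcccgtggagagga
ATPsyngamma: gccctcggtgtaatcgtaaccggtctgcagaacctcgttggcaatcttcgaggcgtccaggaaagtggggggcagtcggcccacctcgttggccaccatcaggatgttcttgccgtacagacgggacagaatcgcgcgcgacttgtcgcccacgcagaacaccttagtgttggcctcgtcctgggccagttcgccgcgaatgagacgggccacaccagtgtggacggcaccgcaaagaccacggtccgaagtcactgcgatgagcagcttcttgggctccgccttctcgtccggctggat
RpS26: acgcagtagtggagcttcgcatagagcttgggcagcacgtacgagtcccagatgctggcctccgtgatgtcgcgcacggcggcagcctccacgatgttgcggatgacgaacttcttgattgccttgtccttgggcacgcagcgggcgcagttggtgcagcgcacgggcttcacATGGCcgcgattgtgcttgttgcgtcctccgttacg
Naa15-16: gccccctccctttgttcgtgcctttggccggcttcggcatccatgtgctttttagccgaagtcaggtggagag
sls: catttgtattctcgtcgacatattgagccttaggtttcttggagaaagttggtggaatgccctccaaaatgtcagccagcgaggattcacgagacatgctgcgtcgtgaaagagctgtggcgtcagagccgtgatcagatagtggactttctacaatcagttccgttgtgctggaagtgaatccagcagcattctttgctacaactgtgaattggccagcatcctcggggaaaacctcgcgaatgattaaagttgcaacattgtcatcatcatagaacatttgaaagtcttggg
ATbp: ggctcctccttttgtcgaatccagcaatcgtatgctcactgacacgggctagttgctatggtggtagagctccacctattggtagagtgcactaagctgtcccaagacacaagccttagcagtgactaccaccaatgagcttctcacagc
The RFeSP and RpS26 sequences each held 1 core, and the other 4 held none. The ATPsyngamma, RpS26 and sls sequences were coding over all their bases, and 48 of the 115 RFeSP bases were coding. Their G+C content was 54.8% at RFeSP, 62.0% at ATPsyngamma, 61.7% at RpS26, 58.9% at Naa15-16, 46.3% at sls and 51.3% at ATbp.

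A second kind of region lay in repeated genes. The same 120 coding bases (bases 191 to 310 of the coding sequence) are shown for His3:CG33803 (chr2L:21420376-21420495) and His3:CG31613 (chr2L:21425440-21425559), 2 histone H3 genes of the histone gene array, each within an acetylated Pho region.
His3:CG33803: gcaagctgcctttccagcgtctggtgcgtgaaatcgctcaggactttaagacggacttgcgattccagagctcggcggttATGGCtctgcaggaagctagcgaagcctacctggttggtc
His3:CG31613: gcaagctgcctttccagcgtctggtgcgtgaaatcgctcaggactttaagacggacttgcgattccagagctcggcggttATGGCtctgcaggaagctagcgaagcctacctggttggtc
Both are identical and hold 1 core in the orientation ATGGC. Over this window 18 of the 23 histone H3 copies in the array had this exact sequence, and a copy differed from it by at most 1 base.

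The degradation Pho lists held 52446, 45669 and 56274 peaks, and 19.7% to 23.9% of the peaks of a list overlapped a peak of both other lists of the group. The control Pho lists held 53805, 53697 and 61534 peaks, of which 17.5% to 19.0% did so. Depth is unknown, since the files give no read counts, and lists of very different length enter as they are. The control H3K27ac lists covered 9.47, 26.9 and 7.71 Mb, and the control H3K27me3 lists 8.58, 21.4 and 13.1 Mb. As a check of the tissue, peaks within 500 bp of a start were counted over the 3 lists of each mark in the controls. Of 6 mesoderm and muscle genes, Mef2 and sls had H3K27ac in 3 lists and H3K27me3 in 0, Mhc had H3K27ac in 2 and H3K27me3 in 0, and twi, tin and htl had H3K27ac in 2 and H3K27me3 in 3, 3 and 1. Of 5 neuronal genes, elav, nSyb and brp had H3K27ac in 3 lists and H3K27me3 in 0, 1 and 2, Syt1 had H3K27ac in 2 and H3K27me3 in 3, and fne had H3K27ac in 0 and H3K27me3 in 2. The glial gene repo had H3K27ac in 2 and H3K27me3 in 3, and the germ line gene vas had H3K27ac in 2 and H3K27me3 in 0. The part of nuclei from other tissues in the results was not tested.

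The acetylated label was checked in the 4 wild-type H3K27ac lists, which the rule did not use. The share of regions whose midpoint lay in a peak was 46.1% and 15.4% in the early lists 1 and 2, against 9.47% and 0.766% of unmarked Pho regions. In the late lists 2 and 3 it was 55.1% and 8.11%, against 22.2% and 1.01% of unmarked regions. The acetylated Pho regions were higher in 4 of 4 lists, by a mean of 22.8 percentage points (31.2% against 8.36%; SD of the difference 14.2, n = 4 lists). The two-sided exact sign-flip permutation test over the 4 lists gave p = 0.125, the smallest that 4 lists allow, and an adjusted p of 0.188. Among single-copy regions (at most 50% repeated 32-base words, as defined below) the mean difference was 24.6 points. The wild-type H3K27me3 lists, also not used by the rule, held the midpoint of 8.89% and 2.12% of acetylated regions in the early lists 1 and 2, against 35.7% and 30.3% of H3K27me3 Pho regions and 6.04% and 1.79% of unmarked ones. In the late lists 2 and 3 they held 8.25% and 2.05%, against 19.9% and 9.25% of H3K27me3 regions and 6.46% and 0.974% of unmarked ones. The acetylated regions were lower than the H3K27me3 regions and higher than the unmarked regions in all 4 of these lists, and neither difference was tested.

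Most acetylated Pho regions were single-copy sequence, but 242 of 1418 (17.1%) were repeated. A region was called repeated where over 50% of the 32-base words starting in it occur more than once in the reference, and single-copy otherwise (1176 regions, 82.9%). This split was chosen after the values were seen. Repeated regions made up 18.4% of unmarked and 29.1% of H3K27me3 Pho regions. How reads that match several copies were placed is not given in the sources used here, so results are given for both kinds.

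Acetylated Pho regions were short and of ordinary Pho rank. Their width ran from 1 to 817 bp, with quartiles of 62, 115 and 193.75 bp, and 612 (43.2%) were under 100 bp. Median widths were 83 bp for unmarked and 100.5 bp for H3K27me3 Pho regions. The authors' fold enrichment of the Pho peaks at the acetylated regions had medians of 1.99, 1.97 and 1.95 in control lists 1, 2 and 3. The median over all peaks was 2.02, 2.0 and 1.95 in those lists. The widest acetylated region (817 bp) lay on the Y chromosome, nearest to Pp1-Y2, and the widest single-copy ones lay in coding sequence of CG45076 (597 bp) and near the start of Pi4KIIalpha (561 bp), a lipid kinase gene.

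Many acetylated Pho regions lay just downstream of gene starts. Of the 1418, 529 (37.3%; 95% exact binomial interval 34.8 to 39.9) came within 500 bp of a transcription start of a protein-coding gene, against 9.29% of unmarked regions, 8.57% of H3K27me3 regions and 11.2% of genome bases. Intervals here cover counting error only. Among single-copy regions the shares were 41.3% of acetylated, 11.2% of unmarked and 11.9% of H3K27me3 regions. The side was uneven, with 436 midpoints up to 500 bp downstream of the nearest start and 41 up to 500 bp upstream. By 100 bp steps downstream of the start, there were 16, 65, 114, 128, 112, 63 and 59 midpoints, so the bin from 300 to 400 bp held the most. Only 14 regions contained a start.

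**Figure D1:**
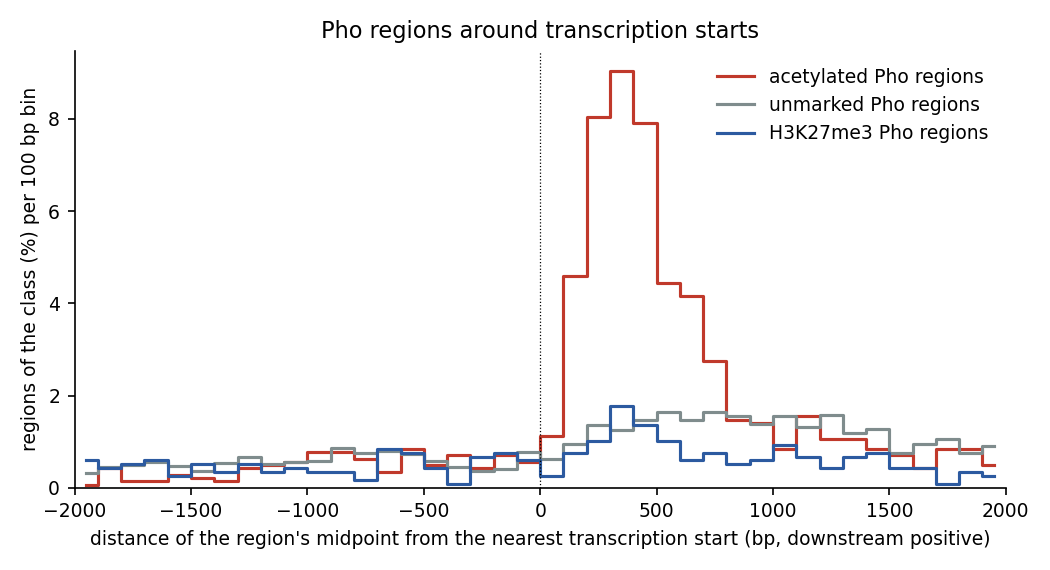
Share of each class of Pho region (%) per 100 bp bin of the distance from the region's midpoint to the nearest transcription start (bp), for acetylated, unmarked and H3K27me3 Pho regions. The acetylated regions peak between 200 and 500 bp downstream of the start, where the 3 bins hold 114, 128 and 112 of 1418 regions.

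Coding sequence held just over 50% of the regions. The midpoint was in coding sequence in 743 acetylated regions (52.4%), against 40.6% of unmarked and 18.7% of H3K27me3 regions and 16.6% of genome bases. For the 529 near a start that share was 69.6%. Away from starts, 375 regions (26.4%) lay in coding exons, 288 (20.3%) in introns, 213 (15%) between genes and 13 (0.917%) in untranslated sequence. Regions over 10 kb from a start were mostly repeated, 166 of 235.

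By chromosome the regions were sparse on the X, with 67 there (4.72% of regions, interval 3.68 to 5.96). The X has 17.1% of the bases and 15.7% of the protein-coding genes, and unmarked Pho regions had a similar share on it (4.77%). Of the 67, 39 were repeated, and 33 lay past 21 Mb near the centromere end of the X. Single-copy acetylated regions numbered 28 on the X (1.19 per Mb), against 9.89 to 11.0 per Mb on arms 2L, 2R, 3L and 3R. All 18 regions on the Y were repeated. The control Pho lists as a whole had 8.53% to 9.17% of their peaks on the X.

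The acetylated Pho regions were given to 1328 genes, by a start within 500 bp or else the nearest start, and 1195 of these genes had 1 region. A region lay within 500 bp of a start of 632 of 13968 protein-coding genes (4.52%). The 111 histone genes of the array account for 47 of these, so the share among other genes was 4.22%. Counts over gene lists take only regions within 500 bp of a start, were set beside these shares and were not tested. Acetylated Pho regions were found at 8 of 87 cytoplasmic ribosomal protein genes (9.2%), 7 of 73 mitochondrial ones (9.59%), 3 of 32 proteasome genes (9.38%), 3 of 53 translation factor genes (5.66%) and 2 of 22 DNA replication genes (9.09%). Among Polycomb group genes there were 2 of 24 (8.33%), E(z) and Sce. There were none within 500 bp of a start at 25 Trithorax group genes, 8 Hox genes, 38 regulators of mesodermal or muscle identity, 34 regulators of neuronal identity, 31 genes of mature neurons and 13 gut regulators. Taken singly, lists of this size are too short to tell a count of 0 from the share of 4.52%. Of 37 genes of muscle differentiation 1 had a region within 500 bp of a start, and of 179 chemoreceptor genes 2.

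At RpS26 the authors' Pho fold enrichment was 1.85 in degradation list 1 with no peak in degradation lists 2 and 3, against 2.09, 2.01 and 2.59 in the control lists. H3K27ac was present in all 3 degradation and all 3 control lists at this region. The region by RpS13, a second small-subunit gene, had no Pho peak in a degradation list, against 2.46, 2.02 and 1.91 in the controls, and had H3K27ac in 3 degradation lists. Prosbeta6, a proteasome subunit, had a Pho fold of 1.9 in degradation list 1 alone, against 1.97, 2.06 and 2.2 in the controls. Mcm5, part of the replicative helicase, had 1.87 and 1.63 in degradation lists 2 and 3, against 2.31, 1.88 and 1.86 in the controls. The number of degradation lists with a Pho peak ran from 0 to 2 among these 4 genes, and H3K27ac was called at each of the 4 in at least 2 degradation lists. The 4 are examples, and other genes of the lists above differed. The translation factor genes eEF1beta and eIF3g1 had Pho in 3 degradation lists. The proteasome gene Rpn12 and eIF3g1 had H3K27ac in 1. Of all single-copy acetylated regions within 500 bp of a start, 80.5% had H3K27ac in at least 2 degradation lists.

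The Hox genes carried no acetylated Pho region, and the rule itself bears on this absence. All 8 had H3K27me3 within 500 bp of a start in 3 control lists, and the rule drops regions with that mark in 2. The Ubx gene body held 9 H3K27me3 regions and 2 with both marks, Antp 5 and 1, and Abd-B 4 H3K27me3 regions. None was found at pho itself, phol, Pc, ph-p, trx, ash1, Trl, twi, tin, Mhc, RpL32, RpS3, elav, exd or hth. The region counted for E(z), the methyltransferase that places H3K27me3, was at chr3L:10638475-10638687, 213 bp wide and inside the neighbouring gene Cnep1r2. Its Pho fold was 1.82 in degradation list 3 alone, against 2.05, 2.16 and 2.24 in the controls. Sce, a ring-finger subunit of the Polycomb repressive complex that binds the mark, had 1.8 in degradation list 1 alone, against 2.21, 2.05 and 1.92 in the controls.

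Muscle genes with an acetylated Pho region had it in the gene body or upstream. The Mef2 region (chr2R:9920573-9920660, 88 bp, coding exon) had Pho folds of 1.76 and 1.78 in degradation lists 1 and 3, against 1.99, 1.86 and 1.72 in the controls. It had H3K27ac in no degradation list. The sls region shown above had 2.14, 2.01 and 1.68 in the degradation lists, against 1.94, 2.02 and 2.03 in the controls, and the other sls region (chr3L:2091398-2091712, coding exon) had 1.92, 1.8 and 1.83, against 2.48, 1.94 and 1.91. Both sls regions were thus in every Pho list, and each had H3K27ac in 1 degradation list. Mlc2, a myosin light chain, had a fold of 2.0 in degradation list 1 alone, against 2.04, 2.0 and 1.77 in the controls.

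The densest cluster was the histone gene array on 2L (chr2L:21416953-21541681), about 125 kb of tandem copies that encode the histones made in S phase. All 35 intersected Pho regions in it were acetylated, and all 35 were repeated sequence. They were 69 to 524 bp wide (median 180). Of these, 22 lay in His3 gene bodies, 10 in His4, 1 in His2A and 2 between genes, and 32 were within 500 bp of a His3 start. All 23 His3 genes and 21 of 22 His4 genes had a region within 500 bp of a start, against 1 of 20 His2A, 2 of 23 His2B and 0 of 23 His1 genes. The His3 and His4 genes are divergent neighbours, and over identical stretches the reads of 1 copy cannot be told from those of another.

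**Figure D2:**
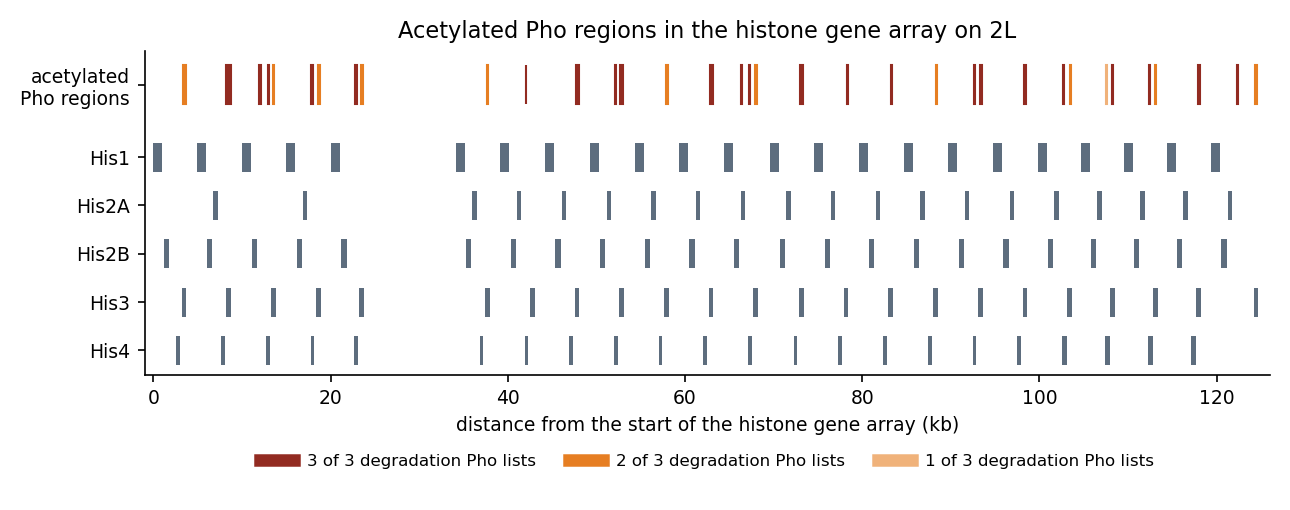
Map of the histone gene array, with distance from its start (kb) across and histone genes in grey by type. The 35 acetylated Pho regions are coloured by the number of degradation Pho lists with a peak (23 in 3 lists, 11 in 2 and 1 in 1) and 32 of them lie within 500 bp of a His3 start.

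The array's state came from some lists and not others. H3K27ac peaks overlapped 1, 35 and 35 of the 35 regions in degradation lists 1, 2 and 3, and likewise 1, 35 and 35 in control lists 1, 2 and 3. H3K27me3 peaks overlapped 0, 0 and 32 in the degradation lists, against 0, 0 and 35 in the controls. Pho peaks overlapped 34, 34 and 24 in the degradation lists. So list 1 of H3K27ac and list 3 of H3K27me3 stood apart from their group at this locus in both genotypes. Both early neuronal Ubx lists held all 35 regions, while the late mesoderm Ubx lists R and S held 4 and 2.

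The other 207 repeated acetylated regions lay outside the array. Among all acetylated regions, the genes given most regions were Myo81F (19), Pzl (14) and ATbp (13). These names mark the nearest start, which lay 26360 to 1275529 bp away. Several regions given to Pzl lay in introns of Myo81F. The Myo81F region at chr3R:1842605-1842896 was single-copy, with 41.1% repeated words. At the ATbp region on the X that includes the sequence above (813 bp), Pho folds were 1.9, 2.02 and 1.65 in the degradation lists, against 1.88, 2.15 and 1.57 in the controls, and a Ubx peak was present in all 9 Ubx lists. Of the 34 acetylated regions with a mean Pho rank at or above the 90th percentile of the control lists, 32 were repeated. The acetylated regions highest in Pho rank were thus largely repeats. The same count was not made for the other classes of Pho region, so it does not show a trait of acetylated regions. Regions with both marks were repeated in 68.3% and had a median Pho percentile of 63.5, against 54.2 for acetylated regions.

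In the degradation lists, a Pho peak was present at 49.4%, 45.1% and 45.8% of the acetylated regions in lists 1, 2 and 3. In all 3 lists it was present at 224 regions (15.8%, interval 13.9 to 17.8), where 13.5% of all 8908 intersected regions had it. It was absent from all 3 at 278 (19.6%), where the share over all regions was 24.5%. A region in every control list can only stay or be lost, so these values are no test of degradation against control. By the labels, degradation list 1 shared lane 5 of the sequencer with control lists 1 and 2, and degradation lists 2 and 3 shared lane 6 with control list 3.

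A control list left out of the rule shows the level in a control that did not choose the regions. For regions defined by control lists 2 and 3, the acetylated class of 3369 regions had Pho in 47.0%, 41.8% and 43.6% in the degradation lists, against 46.9% in the left-out control list 1. With control list 2 left out (4446 regions) the degradation lists had 50.5%, 45.0% and 48.5%, against 37.2% in the control. With control list 3 left out (2996 regions) they had 49.2%, 44.7% and 45.9%, against 50.8%. Within lane 5, degradation list 1 thus had 47.0% against 46.9% in control list 1, and 50.5% against 37.2% in control list 2. Within lane 6, degradation lists 2 and 3 had 44.7% and 45.9% against 50.8% in control list 3. The degradation lists lay on both sides of the left-out control.

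Pho in all 3 degradation lists was more frequent at repeated regions. It held for 101 of 242 repeated regions (41.7%, interval 35.5 to 48.2) and for 123 of 1176 single-copy regions (10.5%, interval 8.77 to 12.4). Outside the histone array it held for 78 of 207 repeated regions (37.7%). The intervals count each region as independent, which copies of a repeat are not, so the interval for repeated regions may be too narrow. The difference was not tested. The single-copy share was 7.12% for unmarked and 11.7% for H3K27me3 regions, and 8.57% over all single-copy regions. With repeated regions included, unmarked and H3K27me3 regions had 9.14% and 14.8%, so repeats had it more often in these classes too. By list, repeated acetylated regions outside the array had Pho in 63.3%, 61.4% and 59.9%, and single-copy ones in 45.6%, 40.6% and 42.6%. Wider regions also had it more often, with 7.81% of regions under 50 bp, 8.43% from 50 to 100 bp, 18.2% from 100 to 200 bp and 26.3% from 200 bp. In the same steps unmarked regions had 5.29%, 6.02%, 10.9% and 20.7%, and H3K27me3 regions 8.55%, 8.01%, 17.6% and 26.6%. The rise with width was thus not limited to acetylated regions.

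H3K27ac was present in at least 2 degradation lists at 775 acetylated regions (54.7%, interval 52.0 to 57.3), where 20.4% of all intersected regions had it, and in none at 215 (15.2%), where 42.6% of all had none. Regions with both marks, also chosen for H3K27ac in the controls, had 52.0% and 8.67%, close to or beyond the acetylated regions. Unmarked regions, the largest class, had 10.5% and 53.5%. By list H3K27ac overlapped 42.2%, 68.5% and 54.5% of acetylated regions in degradation lists 1, 2 and 3, against 64.2%, 94.6% and 60.2% in the control lists that chose the regions. With control list 1, 2 or 3 left out of the choice, the acetylated class had H3K27ac in 34.6%, 78.0% or 32.3% in that left-out control. The degradation lists had 34.0%, 65.4% and 60.2% of the first set (777 regions), 57.1%, 72.5% and 61.7% of the second (345) and 60.6%, 83.2% and 56.8% of the third (834). Control list 2, which covered the most genome of the 3, had the highest share of them.

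Regions near a start had H3K27ac more often. Among single-copy acetylated regions, 80.5% of the 486 within 500 bp of a start had it in at least 2 degradation lists, and 40.3% of the 690 elsewhere. In a late wild-type mesoderm list H3K27ac was found at 85.0% of regions near a start and 48.6% of the others. Pho in all 3 degradation lists was found at 13.0% and 8.7% of these. The degradation lists showed this in the other single-copy classes too. Unmarked regions near a start and elsewhere had H3K27ac in at least 2 lists in 20.2% and 9.91%, and Pho in 9.71% and 6.79%. H3K27me3 regions had 19.2% and 13.5%, and 19.2% and 10.7%. Late wild-type H3K27ac was at 34.5% and 26.7% of unmarked regions, but at 24.2% and 25.7% of H3K27me3 regions.

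H3K27me3 was found in at least 2 degradation lists at 125 acetylated regions (8.82%, interval 7.39 to 10.4), where 21.3% of all intersected regions had it, and in all 3 at 34 (2.4%, against 11.9% of all). The shares of all regions include the classes chosen for H3K27me3. Unmarked regions had it in 8.63% and 2.26%, close to the acetylated regions. By list it overlapped 5.78%, 12.4% and 23.1%. Single-copy regions near a start had it in 1.44% and those elsewhere in 12%. By the rule applied to the degradation histone lists, 719 regions (50.7%) were acetylated, 574 (40.5%) unmarked, 69 (4.87%) H3K27me3 and 56 (3.95%) both. Of all intersected regions the same rule put 14.7% as acetylated, 64.0% as unmarked, 15.6% as H3K27me3 and 5.75% as both. Of the single-copy regions with H3K27me3 in all 3, the DCX-EMAP coding exon region had no Pho peak in a degradation list, and one in an intron of DIP-eta had Pho in 2.

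**Figure D3:**
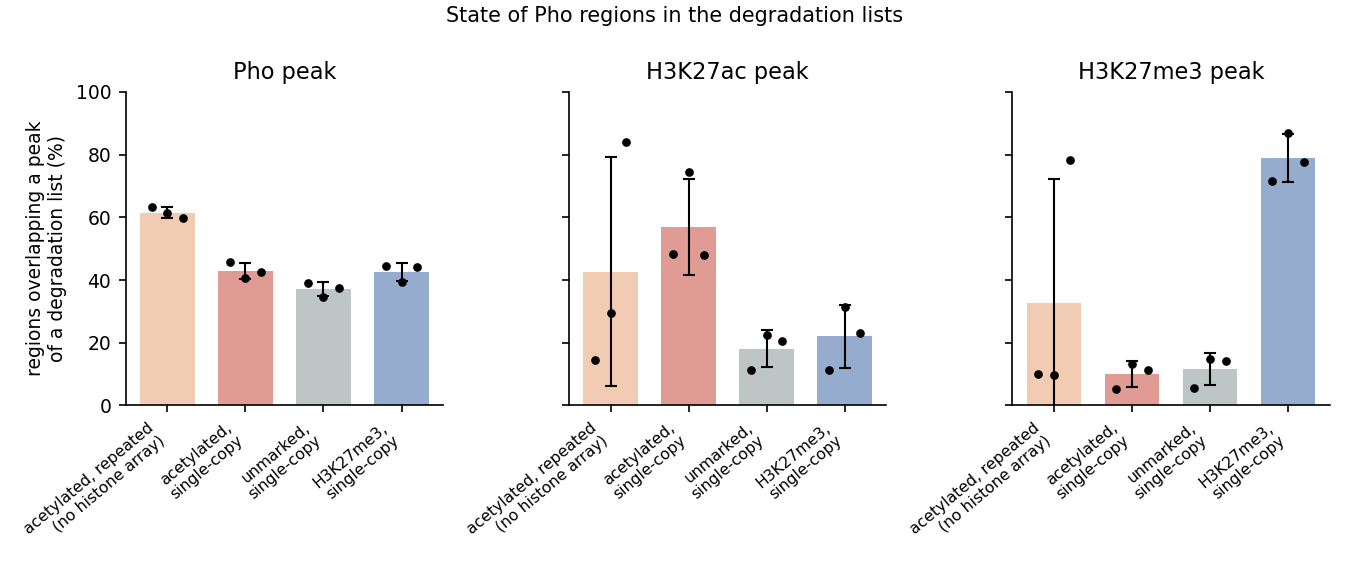
Share of regions (%) that overlap a Pho, H3K27ac or H3K27me3 peak of each degradation list, for repeated acetylated regions outside the histone array, single-copy acetylated regions, and single-copy unmarked and H3K27me3 regions. Bars are means of the 3 lists, error bars the SD and points the lists. Single-copy acetylated regions have H3K27ac in 48.2%, 74.5% and 48.0%, and repeated ones spread from 14.5% to 84.1%.

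Among single-copy regions within 500 bp of a start, 32 of 486 had both Pho and H3K27ac in all 3 degradation lists. They were chosen after the values were seen and are described only. The same count was not made for the other classes of Pho region. All 32 lay downstream of the start, with midpoints 54 to 517 bp from it. Of all acetylated regions, 436 had midpoints up to 500 bp downstream and 41 up to 500 bp upstream. All 32 had H3K27ac in a late wild-type mesoderm list, where 85.0% of the 486 had it. None had H3K27me3 in 2 or more degradation lists, where 1.44% of the 486 had it. The genes named here were also picked after their values were seen. RFeSP had Pho folds of 1.77, 1.9 and 1.99 in the degradation lists, against 1.93, 2.12 and 1.98 in the controls. ATPsyngamma had 1.82, 1.78 and 1.93, against 1.9, 2.08 and 2.32. The gene blw, which encodes the alpha subunit of ATP synthase, had 1.97, 1.94 and 2.19, against 2.01, 2.15 and 2.07. Pgk, a glycolytic kinase, had 1.86, 1.99 and 1.9, against 2.06, 2.26 and 2.28. Others were eEF1beta, a translation elongation factor, Arpc4, a subunit of the actin-nucleating Arp2/3 complex, Nup62 of the nuclear pore and Drp1 of mitochondrial fission.

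At the other end, Naa15-16 had no Pho peak in a degradation list, against folds of 2.89, 2.46 and 2.32 in the controls, and H3K27ac in all 3 degradation lists. Rif1, a regulator of replication timing, had none either, against 2.35, 2.21 and 2.03, also with H3K27ac in all 3 degradation lists. So did SamDC, an enzyme of polyamine synthesis, against 2.41, 2.28 and 2.09. In CG5001, neither mark nor Pho was called in a degradation list, against Pho folds of 2.3, 2.34 and 2.08 in the controls. These regions are 47 to 73 bp wide, below the median of all acetylated regions.

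Of 1418 regions, 932 (65.7%) overlapped a Ubx peak in any of 9 lists, against 63.5% of all intersected regions. Overlap in all 9 lists was seen at 4 (0.282%), against 0.752% of all. In both late mesoderm lists 38 did (2.68%, against 3.03% of all intersected regions). In every early mesoderm list 10 did (0.705%, against 1.71%). In both early neuronal lists 268 did (18.9%, against 22.1%), and in both late neuronal lists 8 (0.564%, against 0.988%). Of the 268, 210 were repeated, which is 86.8% of repeated regions, against 4.93% of single-copy ones (58). Unmarked and H3K27me3 regions had 16.4% and 30.7% in both early neuronal lists, and their single-copy regions 3.73% and 5.39%. An excess at repeated regions was thus not limited to the acetylated class. The early neuronal lists R and S held 38447 and 66459 peaks, and the late neuronal lists 1336 and 936. Levels between tissues and stages were therefore not compared by a test.

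The single-copy acetylated regions overlapped Ubx peaks less often than the repeated ones outside the array in each of the 9 lists, and this difference was not tested. Repeated regions of the other classes were not counted apart, so these shares do not show a trait of acetylated repeats. They overlapped a peak in 23.0%, 0.935% and 4.85% in early mesoderm lists R2, R and S, and in 3.83% and 5.78% in late mesoderm lists R and S. The repeated regions outside the array had 50.2%, 7.73% and 15%, and 22.7% and 20.3%. In early neuronal lists R and S the single-copy regions had 15% and 30.6% and the repeated ones 87.0% and 93.7%. In the late neuronal lists the single-copy shares were 0.255% and 0.34%. In the late neuronal lists the repeated ones had 8.7% and 10.1%. A Ubx peak in both late mesoderm lists was found at 5 single-copy acetylated regions (0.425%), against 0.48% of all single-copy intersected regions. In every early mesoderm list there was 1 (0.085%, against 0.102%), and in both late neuronal lists 1 (0.085%, against 0.145%).

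**Figure D4:**
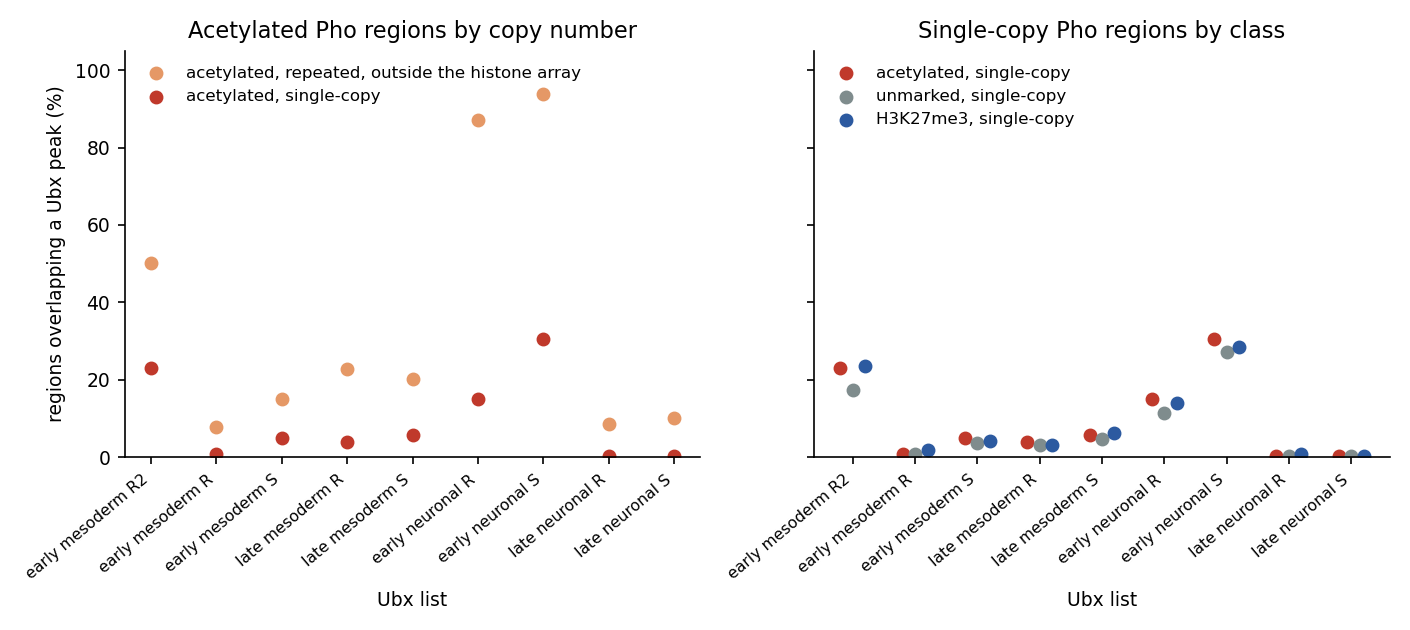
Share of Pho regions (%) that overlap a Ubx peak in each of the 9 lists. The left panel sets repeated acetylated regions outside the histone array beside single-copy ones, and the right panel sets single-copy acetylated regions beside unmarked and H3K27me3 ones. Repeated regions reach 87.0% and 93.7% in the early neuronal lists.

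Ubx peaks were tested with the midpoint of a region, so that a longer region does not overlap a peak more often through its length alone. In early mesoderm lists R2, R and S the acetylated regions had 20.0%, 0.846% and 3.53%, against 14.5%, 0.609% and 2.56% of unmarked regions. In late mesoderm lists R and S they had 4.87% and 4.87%, against 3.05% and 3.24%. In early neuronal lists they had 22.1% and 32.8%, against 18.7% and 29.0%, and in late neuronal lists 0.917% and 1.48%, against 0.261% and 0.278%. The acetylated regions were higher in 9 of 9 lists, by a mean of 2.15 points (10.2% against 8.02%; SD of the difference 1.75, n = 9). A two-sided exact sign-flip permutation test gave p = 0.00391, the smallest that 9 lists allow, and an adjusted p of 0.0117 by Benjamini-Hochberg over 3 tests. Among single-copy regions the mean difference was 0.984 points in 8 of 9 lists, p = 0.00781 by the same exact test. Among single-copy regions near a start it was 1.04 points, p = 0.0898 by the exact test. Among regions of at least 100 bp the mean difference was 2.97 points, higher in 9 of 9 lists, exact sign-flip p = 0.00391, so the value still varied with width. The lists come from different tissues and stages, so the p measures the spread between these lists.

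The acetylated regions did not differ from H3K27me3 regions beyond the spread between lists. They were higher in 4 of 9 lists, with a mean difference of -1.8 points (10.2% against 12%; SD of the difference 4.41, n = 9) and exact sign-flip p = 0.363, adjusted p = 0.363. In early neuronal lists R and S the acetylated regions had 22.1% and 32.8%, against 32.7% and 40.7% of H3K27me3 regions. Among single-copy regions these became 9.18% and 20.7%, against 8.98% and 18.1%, and the mean difference over 9 lists was -0.0189 points, exact p = 0.973. Under 2 added restrictions the sign turned, to 0.124 points near starts and 0.176 points for single-copy regions away from starts, with exact p = 0.918 and p = 0.582.

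The sequence at the regions was rich in G+C. Windows of 200 bp on the midpoint had 53.0% G+C, against 44.3% in windows 1 kb to either side and 42.1% over the genome. Unmarked and H3K27me3 regions had 51.1% and 52.2%. The Pho core GCCAT on either strand was in 44.6% of these windows, 34.0% of those 1 kb to either side, 42.7% of unmarked and 43.0% of H3K27me3 windows, and 35.1% of all genome windows of the same length. In windows 300 bp downstream of all starts the share was 34.7%. Among single-copy acetylated regions it was 45.2%. Those with Pho in all 6 lists had it in 39.8% (123 regions), and those with no Pho in a degradation list in 42.7% (246 regions). In the histone array 77.1% of windows held it, which are near copies of each other. The longer form AANATGGCG, where N is any base, was in 1.13% of windows, against 0.777% to either side and 0.753% of the genome. Unmarked and H3K27me3 windows had it in 0.748% and 1.53%, and windows 300 bp downstream of all starts in 1.03%.

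**Figure D5:**
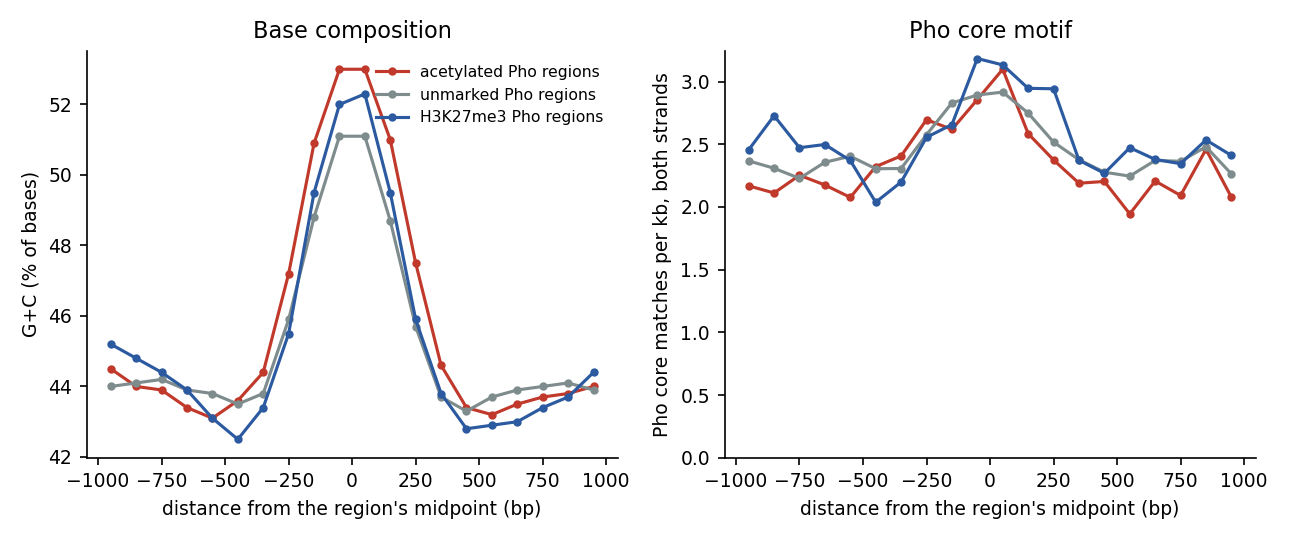
Mean G+C content (% of bases, left) and matches of the Pho core on both strands per kb (right) against distance from the midpoint (bp), for acetylated, unmarked and H3K27me3 Pho regions. At the acetylated regions the 2 central bins hold 2.86 and 3.1 core matches per kb.

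Other motifs searched were GAGAG, bound by GAGA factor, in 23.6% of windows, against 20.5% to either side and 21.5% of the genome. TATCGATA, bound by the promoter factor DREF, was in 0.141%, against 0.562% of genome windows. It was in 0.341% of windows 300 bp downstream of all starts and in 6.42% of windows centred on starts, where few acetylated regions lay. The homeodomain core TAAT was in 58.9%, against 74.9% to either side and 80.6% of the genome. CACGTG, an E-box, was in 3.6%, against 1.84% to either side and 2.34% of the genome. In unmarked and H3K27me3 windows GAGAG was in 25.4% and 27.6%, and TATCGATA in 0.209% and 0.17%. In the same windows TAAT was in 61.9% and 59.7%, and CACGTG in 2.96% and 2.97%. Windows 300 bp downstream of all starts had GAGAG in 21.7%, TAAT in 69.6% and CACGTG in 2.85%. All motifs were searched on both strands. AANATGGCG contains the core, and none of the other motifs contains it or lies within it. A match is a description and not a bound site.

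At the threshold of the rule, the regions just inside were 25 bp at Cnx99A, 66 bp at Nepl20 and 193 bp at msopa, each with 1 base of H3K27ac in its second-best list. Just outside, regions of 570, 510 and 499 bp near Ppr-Y, ARY and CG32121 were covered by H3K27ac in 1 list only. A region of 1 bp at Idgf2 missed through 1 base of H3K27me3 in a second list. H3K27ac covered at least 50% of the region in 2 control lists at 1007 acetylated regions, and 2822 other regions were 1 H3K27ac list short.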

How the data were processed

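Per the submitters' processing notes, the tools FastQC, Bowtie and MACS2 and the build dm6 were named; their versions, parameters and the handling of reads that match several places are not given in the sources used here. Each of the 35 ChIP libraries gave its own deposited list of broad peaks, so no list pools replicates. For each peak the authors give a score, a fold enrichment (a ratio) and −log10 of a p-value and a q-value. Only positions, scores and fold enrichment were used, the last only to describe and rank peaks within a list. The 25 inputs and 5 combined Ubx lists were not used. The peak names inside 2 lists (early mesoderm Ubx R2 and control H3K27ac 3) carry another replicate's name, and the sample label was followed; 13 listed peaks run past a chromosome end. The files hold no read counts, so depth is unknown.

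Regions were computed in Python 3.11.15 (scipy 1.17.1 for the tests, pandas 2.3.3 and numpy 2.4.6 for the intervals, matplotlib 3.10.9 for the plots), and genes came from Ensembl release 115 (13968 protein-coding genes). An overlap of 1 bp counted, and the tests use the region's midpoint. For each list the share of acetylated regions minus that of another class was taken, and a two-sided exact sign-flip permutation test was run over lists, with Benjamini-Hochberg adjustment over the 3 tests. The code was tested on simulated data. Nothing says that replicates are separate cultures of embryos, so p-values measure the spread between these lists, which may be technical. Results against the control lists have no test, because those lists chose the regions. The members and gene lists were chosen with earlier results of these data known.

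Genes named in the text are the Hox genes and fixed regulators, the widest regions, those of highest Pho rank, with most Ubx lists, with no Pho or with H3K27me3 in degradation lists, the genes with most regions, the regions at the thresholds, and the top genes of 14 gene lists. The histone gene array, and the 32 regions with Pho and H3K27ac in every degradation list, were chosen after their values were seen.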

Additional observations from a re-analysis of the deposited data

Results flagged for a closer look

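The difference between acetylated and H3K27me3 Pho regions in Ubx peaks at the midpoint had opposite signs in 2 tissues and stages. It was 1.64 percentage points in the late mesoderm lists (4.87% and 4.87% of acetylated regions, against 2.89% and 3.57% of H3K27me3 regions) and -9.22 points in the early neuronal lists (22.1% and 32.8%, against 32.7% and 40.7%). Each sign held in both lists of its group, and the difference between the groups was not tested. Among single-copy regions the early neuronal lists had 9.18% and 20.7% of acetylated regions, against 8.98% and 18.1% of H3K27me3 regions, so the negative sign was not seen there. The late mesoderm lists R and S had 2.3% and 3.06% of single-copy acetylated regions, against 2.28% and 3.95% of H3K27me3 ones. The positive sign was thus not kept in list S, and list R was nearly level.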

How the results depend on the processing

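The number of acetylated regions was 1418 and depended on the rule. It was 269 with H3K27ac required in all 3 control lists, 865 with H3K27me3 allowed in none, 553 with lists trimmed to the shortest covered length, 164 when each list kept its better-scored 50%, and 806 for regions of at least 100 bp, and 345 to 4446 with 1 control list left out. The share within 500 bp of a start (37.3%) was 31.3% with the 5′ end of the gene only, 51.9% in a window of 1000 bp and 41.3% for single-copy regions. Pho in all 3 degradation lists (15.8%) was 9.66% with at least 50% of the region covered, 5.5% with the better-scored 50% of peaks, 10.5% for single-copy regions and 21.6% for regions of at least 100 bp; leaving out 1 degradation list, which requires fewer lists, gave 23.6% to 26.7%. H3K27ac in at least 2 degradation lists (54.7%) was 43.2% with 50% covered and 41.7% with the better-scored 50%, and 27.4% to 41.1% with both of the other 2 lists required; H3K27me3 (8.82%) was 3.46% to 6.21% likewise. The Ubx difference from unmarked regions (2.15 points) lost its call for single-copy regions near starts (1.04 points, exact p = 0.0898) and was 1.72 to 2.39 with 1 list left out. The difference from H3K27me3 regions (-1.8 points) turned to 0.124 near starts and 0.176 for single-copy regions away from starts, and was -2.27 to -0.704 with 1 list left out. The wild-type H3K27ac difference (22.8 points) was 18.2 to 28.1. The causes were not tested. Settings on copy number, soft-masking, the histone array, distance from starts and, for the degradation shares and tests, width were chosen after seeing the data.

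No paired analysis was possible because the results that set degradation beside control come from no test, and the tests are made within each list. The regions are short intersections of lists that share under 25% of their peaks, the lists differ widely in length, depth is unknown, and no value gives the strength of a mark where no peak was called.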
